A study of Mus musculus with 62 samples.

Results

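Expression of 10 factors of the neural lineage was examined in the forebrain and hippocampus of Ts65Dn mice, a model of Down syndrome. The genes were Sox2, Pax6, Nes and Vim of radial glia, the Notch target genes Hes1 and Hes5, the proneural and intermediate progenitor factors Neurog2 and Eomes, and Neurod1 and Dcx of young neurons. They were selected by gene symbol, and all 10 were found among the 27179 genes of both count tables.

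In the developing forebrain, radial glia line the ventricle, keep their stem cell state through Sox2 and Pax6, and carry the intermediate filaments nestin and vimentin. Notch signalling between neighbouring cells induces the repressors Hes1 and Hes5, which hold back the proneural factor Neurog2. Cells that escape this repression turn on Neurog2 and then Eomes, which marks intermediate progenitors, and their daughters carry Neurod1 and the microtubule-associated protein doublecortin (Dcx). In the adult hippocampus the same sequence continues at a low rate in the dentate gyrus.

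The study profiled polyA RNA of whole E17.5 forebrain from 8 euploid and 7 Ts65Dn embryos, and of whole hippocampus from 47 mice of 6 weeks. The adult groups held 8 euploid, 7 Ts65Dn and 8 Ts65Dn;Brwd1+/- males and 8 females of each of the same genotypes. Ts65Dn mice carry an extra copy of parts of chromosomes 16 and 17, among them Brwd1, a chromatin reader. In Ts65Dn;Brwd1+/- mice the trisomy was combined with the repro5 mutant allele of Brwd1, so that Brwd1 returned to a pair of functional copies in every cell while the other triplicated genes did not. All mice shared the mixed background DBA/2J x B6EiC3Sn/J, and the trisomy came from the dam. The sex of the embryos is not given in the labels. The Y-linked gene Ddx3y stood above the X-linked Xist in euploid embryos 3 and 6 and in Ts65Dn embryos 1, 2 and 7, and below it in the others. Each library came from 1 animal. Ts65Dn mice also carry an extra copy of chromosome 17 genes that have no counterpart on the human chromosome of Down syndrome, which limits them as a model. The genes are spread over 6 chromosomes (GRCm38). Neurog2 lies at chr3:127632733-127635636, Eomes at chr9:118478186-118486132, Dcx at chrX:143855842-143933396 on the minus strand, Sox2 at chr3:34649995-34652461, Pax6 at chr2:105668896-105698410 and Hes5 at chr4:154960626-154962372. None of the 10 genes lies in the triplicated segments, and Hes1, on chromosome 16, starts at 30065357, ahead of the segment that opens at 84718281. The tissues were sequenced in bulk, so fewer cells of a type and less RNA per cell cannot be told apart.

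The embryo libraries held 14.9 to 62.6 M counted reads and the adult libraries 33.6 to 137.1 M. The median log2 ratio of triplicated genes to the euploid mean lay between 0.51 and 0.63 in 34 libraries with a trisomic label. In the other 4 it lay between 0.00 and 0.04, within the range of the euploid libraries. These were the male Ts65Dn library B145, the male Ts65Dn;Brwd1+/- libraries T35 and B138, and the female Ts65Dn;Brwd1+/- library B136. Sex-linked genes went against the label in the male Ts65Dn library B88 and in the female euploid library B85. Results that rest on these 6 libraries are given with and without them. Brwd1 was higher in Ts65Dn by log2 0.56 in embryos (adjusted p = 1.19e-05), 0.53 in males (adjusted p = 0.00984) and 0.46 in females (adjusted p = 0.024). In Ts65Dn;Brwd1+/- its log2 difference from Ts65Dn was -0.25 in each sex and was not called after adjustment. Its difference from euploid there was 0.28 in males and 0.21 in females, and neither was called. These values include T35, B138 and B136, where Brwd1 was at 6.79, 6.50 and 6.58 log2 CPM (a gene's reads scaled to the size of the library). In the other male Ts65Dn;Brwd1+/- libraries it ran from 7.05 to 7.26, above the male euploid range of 6.60 to 6.99. In the other female ones it ran from 6.79 to 7.28, and in female euploid libraries from 6.26 to 7.12. A Brwd1 difference without these libraries is not given. Of the markers of dentate granule neurons, 8 of 8 were tested in each sex, and their summed level ran from 369 to 936 CPM in the adult libraries.

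The promoters of 3 genes are shown because the results below turn on Neurog2 and Eomes, and because Hes5 is a direct target of Notch signalling. Each run holds the 250 bases before a start of transcription in RefSeq (GRCm38.p6, plus strand), 5′ to 3′, and capitals mark matches to the motifs searched. The windows of Neurog2 and Hes5 lie inside the gene spans given above, since they end at a start later than that of the span. The window of Eomes ends just inside its span.
Neurog2, chr3:127632886-127633135: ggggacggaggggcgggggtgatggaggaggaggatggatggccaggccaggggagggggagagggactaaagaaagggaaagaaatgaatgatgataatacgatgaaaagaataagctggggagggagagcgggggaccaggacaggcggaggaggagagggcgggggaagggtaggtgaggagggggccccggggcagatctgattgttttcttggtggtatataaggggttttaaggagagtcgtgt
Eomes, chr9:118477939-118478188: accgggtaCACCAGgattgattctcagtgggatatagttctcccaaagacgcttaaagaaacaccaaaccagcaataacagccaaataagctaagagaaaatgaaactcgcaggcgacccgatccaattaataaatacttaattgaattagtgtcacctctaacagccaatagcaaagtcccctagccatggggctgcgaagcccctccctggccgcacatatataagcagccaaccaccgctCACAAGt
Hes5, chr4:154960673-154960922: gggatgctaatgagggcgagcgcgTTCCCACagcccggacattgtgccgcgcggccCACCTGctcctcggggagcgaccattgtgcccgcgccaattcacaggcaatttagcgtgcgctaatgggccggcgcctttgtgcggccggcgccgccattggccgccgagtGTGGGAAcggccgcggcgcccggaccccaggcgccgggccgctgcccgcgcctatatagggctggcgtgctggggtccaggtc
The motifs were the E box CANNTG, bound by proneural factors such as Neurog2, the N box CACNAG, bound by Hes repressors, and the core GTGGGAA of RBPJ, the DNA-binding partner of Notch. Both strands were read, and the E box and N box cannot share the same 6 bases, because they differ at the fifth letter. Over all 32851 promoters of this length, 66.2% held the E box, 36.7% the N box and 5.42% the RBPJ core. In the Hes5 promoter the RBPJ core was found 83 and 226 bases before the start, in opposite orientations, with an E box at 194. The Eomes promoter held N boxes at 7 and 242 bases before the start. The Neurog2 window held none of these motifs. Of the 10 genes, 9 had an entry (all but Hes1), with 11 promoters between them. Of the others, Neurod1 held an E box, Vim an N box, Pax6 both at its second start and Dcx an N box at each of its starts.

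Levels between genes were compared as CPM per kilobase of exon, as a description with no test, since the E17.5 and adult libraries differ in stage, region and table. In E17.5 forebrain Dcx led with a median of 162 (range 121.6 to 185 over 15 libraries), followed by Vim at 84.7 (64.2 to 107) and Sox2 at 54.6 (37.9 to 61.99). The ranges of these 3 did not overlap. Hes5 (25.6), Neurod1 (24.5), Neurog2 (23.2), Nes (20.2) and Eomes (13.98) followed with overlapping ranges. Hes1 (6.50) and Pax6 (6.30) had the lowest medians, with ranges that lay inside that of Eomes (3.54 to 24.5).

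In adult hippocampus the order of medians was different. Sox2 led at 24.5 CPM per kilobase (18.3 to 30.6 over 47 libraries), followed by Neurod1 at 13.4, Vim at 12.3, Hes5 at 9.39 and Hes1 at 8.67, whose ranges overlapped from one to the next. The lower group held Nes at 2.32, Dcx at 2.16, Pax6 at 1.52, Neurog2 at 1.08 and Eomes at 0.255, again with overlapping ranges. Hes1 was the one gene of the 10 whose adult median was above its E17.5 median. Sox2 varied least among adult libraries of a group, with an SD of 0.16 on the log2 CPM scale, while Eomes (1.05) and Neurog2 (0.68) varied most. Their counts were also the lowest, at 12 to 2234 reads for Eomes and 19 to 407 for Neurog2.

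**Figure D1:**
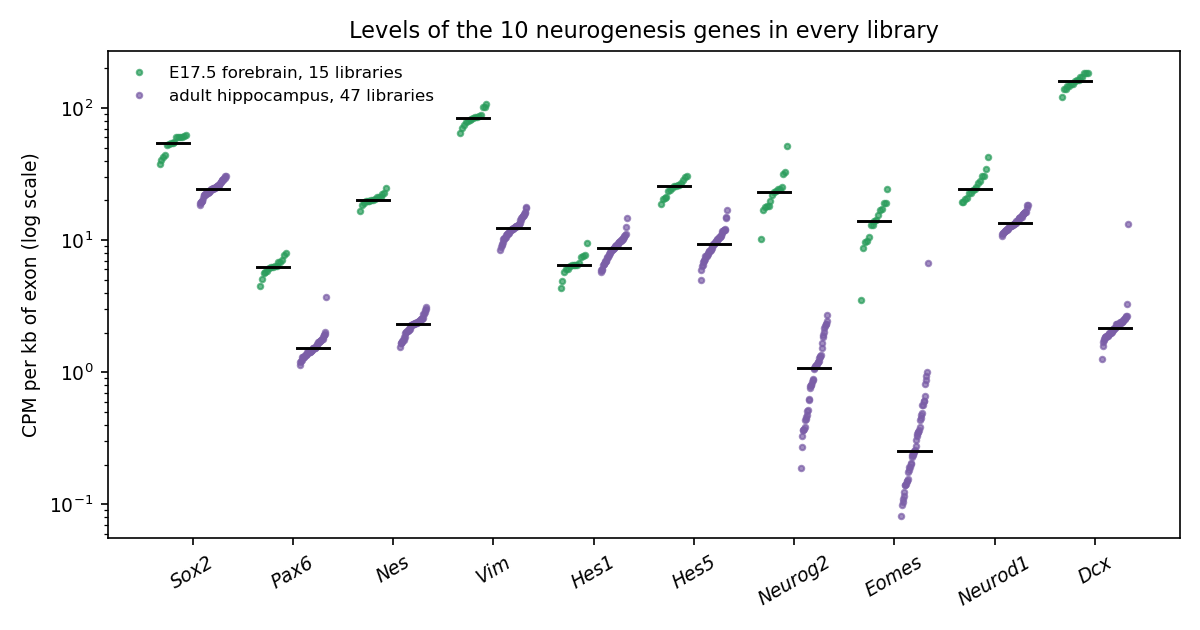
Levels of the 10 genes in every library, as CPM per kilobase of exon on a log axis, for E17.5 forebrain and adult hippocampus, with bars at the medians. Dcx stood highest at E17.5 with a median of 162, and Sox2 stood highest in the adults with a median of 24.5.

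In E17.5 forebrain 0 of the 10 genes passed an adjusted p of 0.1 between Ts65Dn and euploid embryos in edgeR's quasi-likelihood test, against 1.35% of the 16395 genes tested. At an unadjusted p under 0.05 there were also 0, against 12.1% of all genes, and DESeq2 called 0. The difference was negative for 8 of the 10, while 46.3% of all genes had a positive one. The median log2 difference was -0.10 beside -0.01 over all genes.

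Of the 10 genes, Neurog2 and Eomes had the log2 differences farthest from 0 in embryos, and none of the 10 was called. Both values were nearer 0 with cortical genes as a covariate, which were chosen after the values were seen and belong to the same lineage. Neurog2, which commits cortical progenitors to the neuronal fate, ran from 40.4 to 115 CPM in euploid embryos (median 54.4) and from 22.9 to 70.9 in Ts65Dn embryos (median 40.2). The groups overlapped, with euploid embryo 4 highest and Ts65Dn embryo 7 lowest. The log2 difference was -0.49 (SE 0.24, 95% interval -0.997 to 0.01, adjusted p = 0.421 in edgeR). Eomes, the T-box factor of intermediate progenitors, ran from 36.6 to 90.3 CPM in euploid (median 57.6) and from 13.1 to 70.2 in Ts65Dn embryos (median 39.2). The same 2 embryos stood at the ends. Its log2 difference was -0.46 (SE 0.28, adjusted p = 0.509).

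Radial glia genes had log2 differences nearer 0. The log2 differences were -0.15 for Sox2 (SE 0.11), -0.11 for Pax6 (SE 0.10) and 0.00 for Nes (SE 0.07). Vim ran from 140.9 to 236 CPM in euploid (median 174) and from 181.3 to 225 in Ts65Dn embryos (median 191), a log2 difference of 0.17 (SE 0.09, adjusted p = 0.441). Without euploid embryo 3, the highest Vim library, this difference was 0.26 with an adjusted p of 0.0976 in edgeR. The Notch targets Hes1 and Hes5 had log2 differences of -0.02 (SE 0.14) and 0.12 (SE 0.10). Dcx ran from 1292 to 1707 CPM in euploid and from 1124 to 1700 in Ts65Dn embryos, a log2 difference of -0.10 (SE 0.09), and Neurod1, a bHLH factor of young excitatory neurons, had -0.23 (SE 0.15). For all 10 genes the ranges of the groups overlapped. The titles of the embryos carry 2 different numbers, whose meaning the labels do not give. Within them, Neurog2 differed by -0.45 and -0.46, and Eomes by -0.79 (4 against 4) and -0.31 (4 euploid against 3 Ts65Dn).

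Genes of cortical neurons were also lowest in Ts65Dn embryo 7. Emx1, a homeobox factor of cortical progenitors and neurons, Bcl11b, a factor of deep-layer projection neurons, and Tbr1, a T-box factor that follows Eomes in the cortical lineage, were examined after the E17.5 values were seen. Their log2 differences were -0.62 (SE 0.30), -0.29 (SE 0.16) and -0.35 (SE 0.34), and none was called. Their summed level ran from 332 to 504 CPM in euploid (median 473) and from 166.5 to 539 in Ts65Dn embryos (median 332), so that the groups overlapped. A fit added after seeing the data used the mean of these 3 genes as a covariate. The log2 difference was then -0.01 for Eomes (SE 0.13), -0.17 for Neurog2 (SE 0.20) and 0.06 for Pax6 (SE 0.07). Since the 3 genes share the cortical lineage of Neurog2 and Eomes, this fit cannot separate these factors from the lineage as a whole. The summed level of pyramidal neuron markers had a median of 742 CPM in euploid (510 to 1154) and of 510 in Ts65Dn embryos (297 to 819), while 3 of the 6 genes tested had a positive difference and 0 were called.

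**Figure D2:**
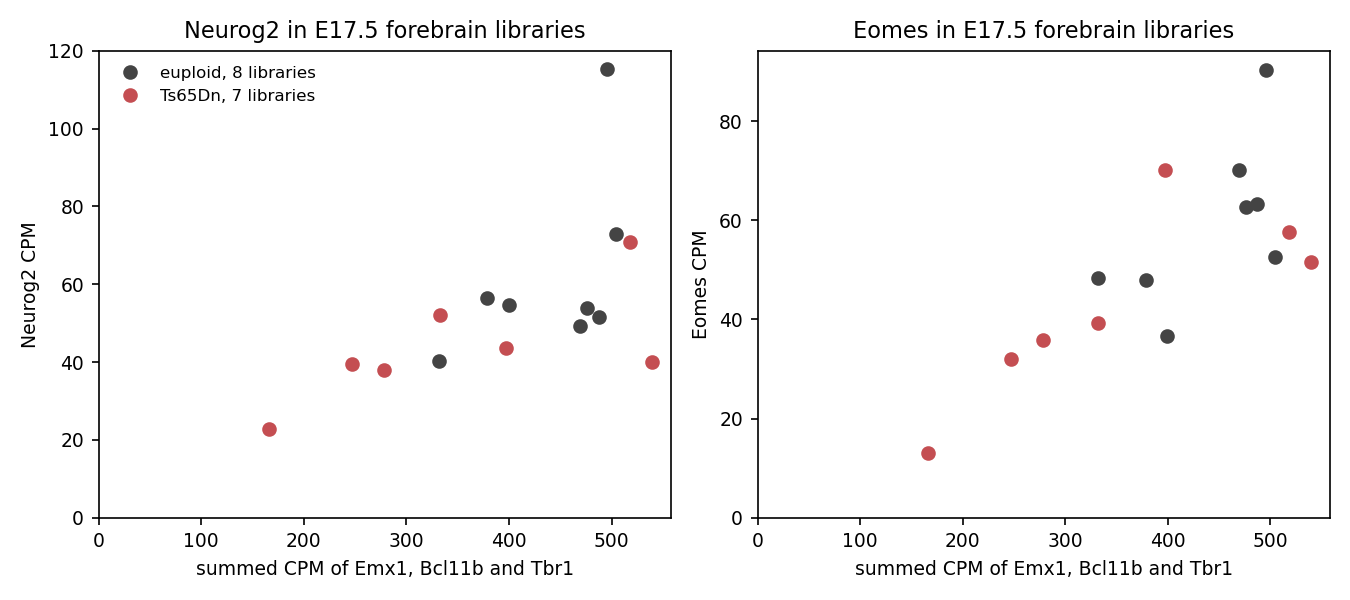
Neurog2 and Eomes (CPM) in the 15 E17.5 libraries against the summed level of Emx1, Bcl11b and Tbr1 (CPM), with euploid and Ts65Dn embryos in different colours. The library with the lowest sum, a Ts65Dn embryo at 166.5 CPM, was also lowest in Neurog2 and Eomes, and the sums of the groups overlapped.

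Markers of choroid plexus (10 of 10 positive, median 0.52), meninges (7 of 8, 0.47) and astrocytes (9 of 10, 0.34) had mostly positive log2 differences in Ts65Dn embryos, against 46.3% of all genes. Of these, 0, 1 (Slc6a13) and 2 (Gja1 and Gjb6) were called, against 1.35% of all genes. The part of these markers in the values of the 10 genes was not tested.

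Of the other genes of the lineage, 0 passed the adjusted threshold in E17.5 forebrain, against 1.35% of all genes. Other intermediate progenitor genes had a negative difference in 8 of 9 (median -0.20), with Insm1 (-0.40) and Btg2 (-0.23) under an unadjusted p of 0.05. Genes of newborn neurons were negative in 22 of 27 (median -0.11), genes of dividing cells in 15 of 15 (median -0.24), and genes of ventral progenitors and interneurons in 11 of 11 (median -0.49). Of all genes, 46.3% had a positive difference. The ventral genes summed to 323 to 621 CPM in euploid and to 70.0 to 612 in Ts65Dn embryos, so that the groups overlapped. Other radial glia genes (16 tested, median -0.04) and the Notch pathway (28 tested, median -0.02) lay close to the median of all genes, -0.01.

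In the adult hippocampus Neurog2 was higher in the groups with a trisomic label in both sexes, with or without the Brwd1 mutant allele. It was called in 4 of 4 comparisons of a trisomic with a euploid group and in neither comparison of Ts65Dn;Brwd1+/- with Ts65Dn. The comparisons within a sex share their euploid libraries and are therefore not independent. Its raw counts ran from 19 to 407 reads in a library.

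In males, Neurog2 ran from 0.421 to 1.77 CPM in the 8 euploid libraries (median 1.42) and from 0.992 to 5.42 in the 7 Ts65Dn libraries (median 4.47). The one Ts65Dn library inside the euploid range was B145, which lacks the trisomic dosage, and the other 6 were at 2.45 or above. The log2 fold change was 1.56 (SE 0.34, adjusted p = 0.031 in edgeR). Neurog2 was the 1 of 10 genes called, against 0.795% of the 16851 genes tested, and 3 of 10 had an unadjusted p under 0.05, against 8.91%. Without the libraries that go against their labels, the fold change of Neurog2 was 1.83 (SE 0.30, adjusted p = 0.00129).

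In male Ts65Dn;Brwd1+/- mice Neurog2 ran from 1.95 to 6.00 CPM (median 3.36). All 8 libraries lay above all 8 euploid libraries, which held for 0.089% of all genes and for no other gene of the 10. T35 and B138, which lack the trisomic dosage, were at 1.95 and 2.92. The log2 fold change against euploid was 1.56 (SE 0.33, adjusted p = 0.0475), and 1.72 (SE 0.29, adjusted p = 0.00175) without the libraries that go against their labels. It was the 1 gene of the 10 called in this comparison, against 0.576% of all genes, and 2 of 10 had an unadjusted p under 0.05, against 10.1%. Without library B26 the adjusted p of Neurog2 was 0.102. Against Ts65Dn the log2 difference was 0.01 (SE 0.33, 95% interval -0.67 to 0.68).

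In females, Neurog2 ran from 0.734 to 1.39 CPM in euploid libraries (median 1.04) and from 0.816 to 4.98 in Ts65Dn libraries (median 2.70). The Ts65Dn libraries B53 and T142, both with trisomic dosage, lay in the euploid range at 0.830 and 0.816, and the other 6 were at 2.37 or above. The log2 fold change was 1.35 (SE 0.27, adjusted p = 0.00922). Here too it was the 1 of 10 genes called, against 3.17% of the 17146 genes tested, while 4 of 10 had an unadjusted p under 0.05, against 15.4%. Without the libraries that go against their labels, Neurog2 alone had an unadjusted p under 0.05, against 12.8%.

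Female Ts65Dn;Brwd1+/- mice had 1.87 to 2.95 CPM of Neurog2 (median 2.54), and all 8 libraries lay above all 8 euploid ones. This held for 0.07% of all genes and, of the 10, for Neurog2 alone. Library B136, which lacks the trisomic dosage, was at 1.98. The log2 fold change against euploid was 1.21 (SE 0.27, adjusted p = 0.0352). Together with Eomes, described below, 2 of 10 genes were called, against 0.729% of all genes, and 6 of 10 had an unadjusted p under 0.05, against 11.2%. Without the libraries that go against their labels, 1 was called and 4 of 10 had an unadjusted p under 0.05, against 9.49%. The difference from female Ts65Dn was -0.14 (SE 0.27, 95% interval -0.68 to 0.41). Without the libraries that go against their labels, Neurog2 differed from euploid by 1.38 (adjusted p = 0.0188) in female Ts65Dn and by 1.27 (adjusted p = 0.0583) in female Ts65Dn;Brwd1+/-.

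The difference in Neurog2 between the Ts65Dn and euploid groups did not differ detectably between the sexes. The sex by genotype interaction was -0.20 on the log2 scale (SE 0.44, 95% interval -1.09 to 0.69, adjusted p = 0.921). Of the 10 genes, 0 were called in this interaction, as were 0% of the 17427 genes tested, 0 had an unadjusted p under 0.05, against 11.1%, and DESeq2 called 0. The adult direction of Neurog2 was opposite in sign to the E17.5 difference of -0.49, which was not called, and the stages were not tested against each other.

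**Figure D3:**
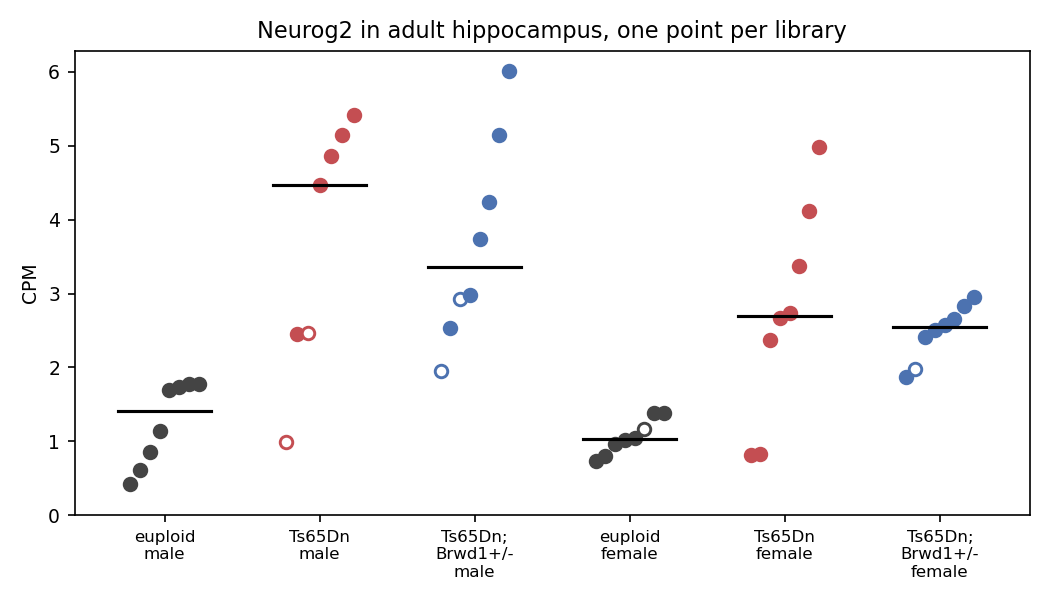
Neurog2 (CPM) in each of the 47 adult hippocampus libraries by sex and genotype, with bars at the medians and open circles for the 6 libraries that go against their labels. All Ts65Dn;Brwd1+/- libraries lay above every euploid library of their sex, while 1 male and 2 female Ts65Dn libraries lay in the euploid range.

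Choroid plexus markers varied widely between the adult libraries, from 39.6 to 6479 CPM in sum, and their median sum was 1106 CPM in male euploid and 144 CPM in male Ts65Dn mice. With their mean as a covariate, Neurog2 was still called in all 4 comparisons with euploid. Ventral progenitor genes had medians of 0.01 in male Ts65Dn, 0.20 in male Ts65Dn;Brwd1+/-, -0.38 in female Ts65Dn and -0.49 in female Ts65Dn;Brwd1+/- against euploid. With the libraries that go against their labels left out, these medians were -0.02, 0.26, -0.02 and -0.19. Dlx6 was then called higher in male Ts65Dn;Brwd1+/- against euploid (1 of 9 genes, against 1.83% of all genes).

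In females, Eomes and Dcx stood highest in the same euploid library, and the call of Eomes depended on other libraries as well. Eomes ran from 0.408 to 24.99 CPM in female euploid libraries (median 1.51), from 0.302 to 3.45 in Ts65Dn (median 0.854) and from 0.386 to 0.895 in Ts65Dn;Brwd1+/- (median 0.539). The library at 24.99 was B85, whose sex-linked genes go against its label, and the next highest was at 3.68. The log2 difference was -1.80 (SE 0.66, adjusted p = 0.171) in Ts65Dn and -2.98 (SE 0.70, adjusted p = 0.0555) in Ts65Dn;Brwd1+/-, the latter called. Without B85 these values were -0.33 (adjusted p = 0.836) and -1.52 (adjusted p = 0.279), and neither was called. Eomes was called against euploid in female Ts65Dn;Brwd1+/- in 17 of the 24 fits that each left out 1 library.

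Dcx ran from 14.6 to 121.7 CPM in female euploid libraries (median 22.01), from 16.1 to 22.5 in Ts65Dn (median 20.5) and from 11.6 to 24.7 in Ts65Dn;Brwd1+/- (median 20.2). B85 was again at the top, and the next library was at 30.5. The log2 differences from euploid, -0.79 (SE 0.32, adjusted p = 0.226) and -0.81 (SE 0.32, adjusted p = 0.348), became -0.12 and -0.15 without B85. Pax6, the paired-box factor of radial glia and also of olfactory bulb interneurons, was at 25.5 CPM in B85 and at 9.84 to 13.2 in the other 7 female euploid libraries. Its differences of -0.37 and -0.47 became -0.15 and -0.25 without this library.

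Genes of ventral progenitors and migrating interneurons summed to 237 CPM in B85 and to at most 120 in the other 46 adult libraries. Olfactory bulb genes, a list chosen after this library was seen, were also highest there. Doc2g was at 80.2 CPM against at most 7.19 elsewhere, Th at 42.9 against at most 2.23, and Tbx21 at 7.32 against at most 0.445. Markers of dentate granule neurons summed to 593 CPM in B85, inside the range of the other libraries. The part of other tissue in this library was not tested.

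**Figure D4:**
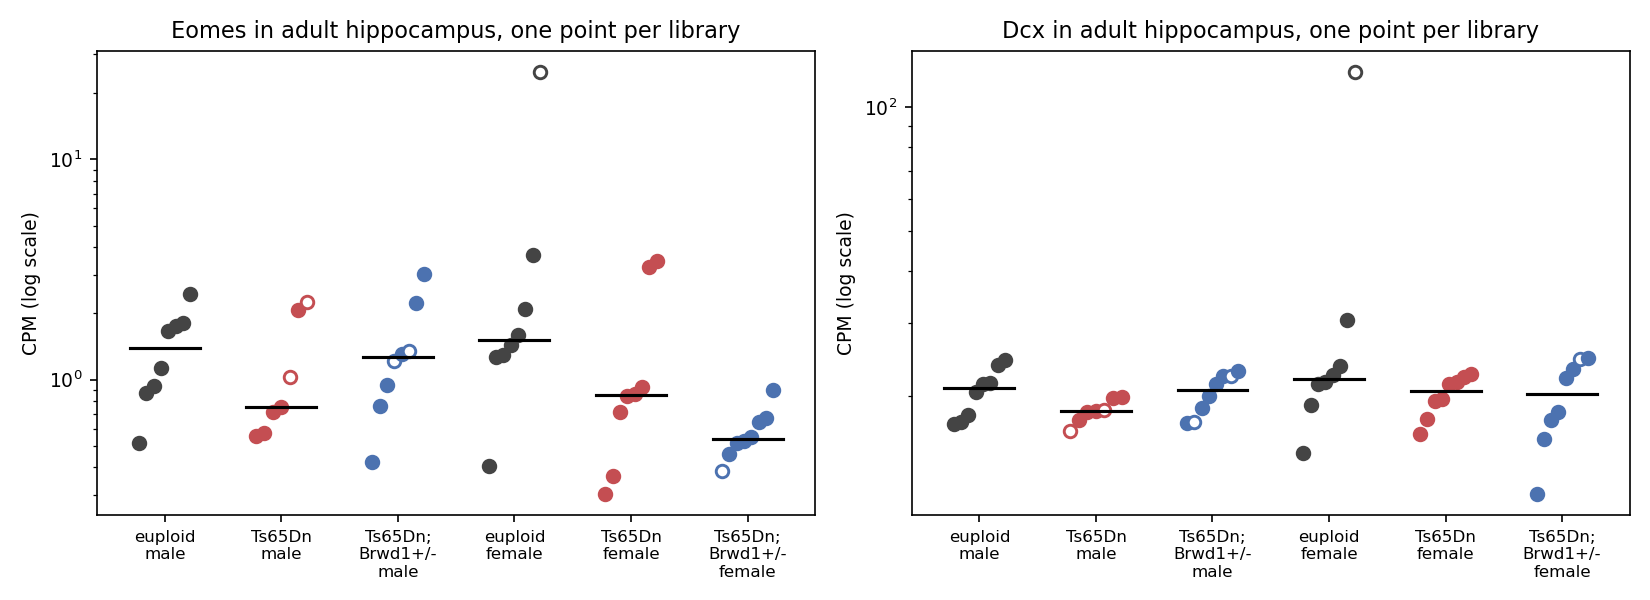
Eomes and Dcx (CPM, log axes) in each adult hippocampus library by sex and genotype, with bars at the medians and open circles for libraries that go against their labels. The euploid female library B85 stood apart in both, at 24.99 CPM of Eomes and 121.7 CPM of Dcx.

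In males neither gene stood apart. Eomes ran from 0.514 to 2.46 CPM in euploid, from 0.553 to 2.25 in Ts65Dn and from 0.424 to 3.02 in Ts65Dn;Brwd1+/-, with log2 differences from euploid of -0.28 (SE 0.39) and 0.01 (SE 0.38). Dcx ran from 17.1 to 24.4 CPM in euploid, from 16.5 to 19.9 in Ts65Dn and from 17.2 to 23.01 in Ts65Dn;Brwd1+/-, with log2 differences of -0.16 (SE 0.08, adjusted p = 0.597) and -0.02 (SE 0.08). Neurod1, which in the adult marks late progenitors and mature granule neurons, had log2 differences between -0.13 and -0.05 from euploid in the 4 comparisons, and none was called. Markers of dentate granule neurons had medians of 0.01, -0.24, -0.26 and -0.41 in male Ts65Dn, male Ts65Dn;Brwd1+/-, female Ts65Dn and female Ts65Dn;Brwd1+/- against euploid. Of these markers, 1 of 8 was called in one comparison (C1ql2 in female Ts65Dn, against 3.17% of all genes). Without the libraries that go against their labels 0 were called. The part of these markers in the values of Neurod1 was not tested.

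The radial glia factors moved less than Neurog2 and were not called against euploid in either sex. Pax6 was lower on the log2 scale in all 4 trisomic groups. In males it ran from 10.5 to 13.4 CPM in euploid (median 12.01), from 8.29 to 13.9 in Ts65Dn (median 10.5) and from 9.04 to 11.3 in Ts65Dn;Brwd1+/- (median 9.79). The groups overlapped, with differences of -0.18 (SE 0.09, adjusted p = 0.555) and -0.27 (SE 0.08, adjusted p = 0.211). Without the libraries that go against their labels, the latter was -0.32 (SE 0.07, adjusted p = 0.0325) and passed the threshold. Pax6 was called there in 6 of 12 alternatives, DESeq2 among them.

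Sox2, a factor of neural stem cells that astrocytes also express, showed its lowest adult median in female Ts65Dn;Brwd1+/- mice. It ran from 37.7 to 47.9 CPM there (median 41.7), from 44.9 to 59.0 in female Ts65Dn (median 53.3) and from 39.0 to 62.5 in female euploid mice (median 53.1). Of the 8 Ts65Dn;Brwd1+/- libraries, 5 lay below every Ts65Dn library. The log2 difference was -0.28 against Ts65Dn (SE 0.08, adjusted p = 0.92) and -0.28 against euploid (SE 0.08, adjusted p = 0.192). Against euploid it was called in 6 of the 12 alternatives that leave out no single replicate, among them DESeq2 (adjusted p = 0.0884), which gave Eomes no adjusted p there. In males it was 0.04 (SE 0.07) against Ts65Dn and -0.13 (SE 0.07) against euploid, and male Ts65Dn differed from euploid by -0.17 (SE 0.07, adjusted p = 0.486). The interaction of sex with the Brwd1 allele was -0.33 for Sox2 (SE 0.11, 95% interval -0.55 to -0.11), and it did not pass the adjustment over all genes. There 0 of the 10 genes were called, as were 0% of all genes and 0 by DESeq2, and 1 of 10 had an unadjusted p under 0.05, against 3.73%.

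Nes had log2 differences between 0.01 and 0.19 from euploid in the 4 trisomic groups and Vim between 0.04 and 0.08, with SEs of 0.10 to 0.13. Hes1 was at 8.46 to 15.5 CPM in female euploid mice (median 11.3), 11.4 to 18.5 in Ts65Dn (median 13.5) and 9.48 to 21.5 in Ts65Dn;Brwd1+/- (median 13.8). Its differences from euploid of 0.28 (SE 0.14, adjusted p = 0.343) and 0.30 (SE 0.14, adjusted p = 0.434) were not called, and in males they were -0.06 and 0.10. Hes5 differed from euploid by -0.08 and 0.05 in males and by 0.02 and -0.17 in females, with SEs of 0.16 to 0.19. Of the exon bases of Hes5, 31.8% overlap Gm20421 on the other strand, and reads of the 2 cannot be told apart without strand.

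None of the 10 genes passed the threshold between the trisomic genotypes. Between Ts65Dn;Brwd1+/- and Ts65Dn, edgeR called 0 of 10 in males and 0 of 10 in females, as it did 0% of all genes in each sex, and DESeq2 called 0 of 10 in each. At an unadjusted p under 0.05 there were 0 of 10 in males, against 7.48% of all genes, and 1 of 10 in females (Sox2), against 3.52%. The median log2 difference of the 10 genes was 0.04 in males and -0.10 in females, beside -0.01 and 0.00 over all genes.

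**Figure D5:**
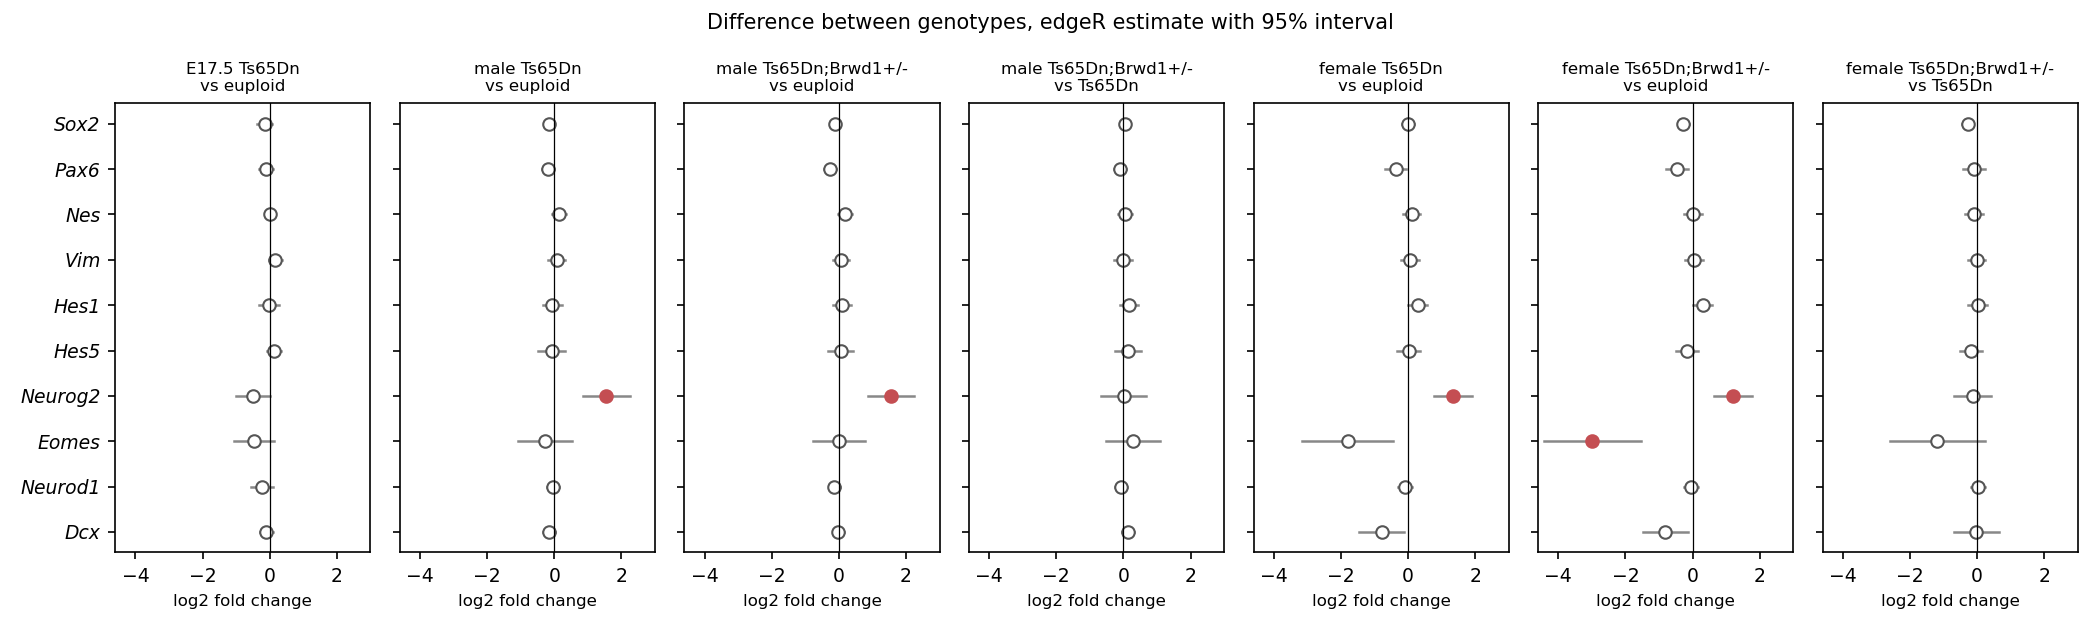
Log2 differences of the 10 genes in each comparison with 95% intervals, from edgeR; filled red points passed an adjusted p of 0.1. Neurog2 lay between 1.21 and 1.56 in the 4 adult comparisons with euploid, and near 0 between Ts65Dn;Brwd1+/- and Ts65Dn, and Eomes passed in female Ts65Dn;Brwd1+/- against euploid with B85 included.

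Few genes of the wider lineage lists were called in the adults. Of all genes, 3.17% were called in female Ts65Dn against euploid. The shares were 0.795% in male Ts65Dn, 0.576% in male Ts65Dn;Brwd1+/- and 0.729% in female Ts65Dn;Brwd1+/-. Of the 9 other intermediate progenitor genes, the cell cycle regulator Gadd45g was called in female Ts65Dn against euploid (log2 -0.36, adjusted p = 0.0775), and the list's medians against euploid were -0.04, -0.11, -0.22 and -0.10 in male Ts65Dn, male Ts65Dn;Brwd1+/-, female Ts65Dn and female Ts65Dn;Brwd1+/-. Of the 27 newborn neuron genes, the netrin receptor gene Unc5d was called higher (0.48) and Sox11 lower (-0.37) in female Ts65Dn, with a list median of -0.02, and neither was called without the libraries that go against their labels. Other radial glia genes had 0 of 16 called and a median of -0.13 in male Ts65Dn and -0.12 in male Ts65Dn;Brwd1+/-, and 7 of 16 were lower at an unadjusted p under 0.05 in each, against 3.88% and 5.09% of all genes. The 7 included Sox9, Slc1a3, Ptprz1, Gli3, Id4 and Msi1 in both, and the comparisons share their euploid libraries. Against euploid and with the libraries that go against their labels left out, Id4 and Slc1a3 were called lower in male Ts65Dn, Id4 and Ptprz1 lower in male Ts65Dn;Brwd1+/-, and Fabp7 higher in female Ts65Dn. Of all genes, 1.54%, 1.83% and 1.9% were called in these comparisons. Astrocytes express these genes too. Of 10 astrocyte markers, 4, 5 and 1 were lower at an unadjusted p under 0.05 in these 3 comparisons, in the same order. Gja1 was called lower in male Ts65Dn, Gja1 and Slc1a2 were called lower in male Ts65Dn;Brwd1+/-, and 0 were called in female Ts65Dn. Notch pathway genes (28 tested) had 0 called in any comparison of all libraries and medians between -0.06 and -0.01 against euploid. Without the libraries that go against their labels, Notch1 was called lower in male Ts65Dn;Brwd1+/- against euploid, where 1.83% of all genes were called. Genes of dividing cells (14 tested) had 0 called and medians of -0.06, -0.05, -0.35 and -0.20 in the same order of groups.

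Among animals of a group, the abundance of some of the 10 genes varied together. Of 12 relations computed on log2 CPM after subtraction of the group means, with 2-sided permutation tests, Nes and Vim had a Pearson's r of 0.51 over the 47 adult libraries (p = 0.00022, adjusted p = 0.00264) and a Spearman's rho of 0.51 (p = 0.00033, adjusted p = 0.00396). It was 0.63 within males and 0.44 within females, and 0.51 without the 2 libraries farthest from the median of Nes. Hes1 and Hes5 had an r of 0.47 (p = 0.00078, adjusted p = 0.00468) and a rho of 0.42 (p = 0.0035, adjusted p = 0.021), with 0.44 in males, 0.51 in females and 0.45 without the 2 farthest libraries. Sox2 and Hes5 had an r of 0.38 (p = 0.00768, adjusted p = 0.0184) and a rho of 0.38 (adjusted p = 0.0342), which was 0.29 in males, 0.49 in females and 0.29 without the 2 farthest libraries.

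Some relations along the neuronal step depended on single libraries. In adults Dcx and Eomes had an r of 0.37 (p = 0.0207, adjusted p = 0.0413) and a rho of -0.09 (p = 0.556, adjusted p = 0.667), and r was -0.32 within males, 0.51 within females and -0.23 without B85. Dcx and Neurod1 (r = 0.01, p = 0.953) and Eomes and Neurog2 (r = -0.06, p = 0.699) had an r near 0 over the adult libraries. Over the 15 embryos Eomes and Neurog2 had an r of 0.68 (permutation p = 0.00718, adjusted p = 0.0184) and a rho of 0.50 (permutation p = 0.0599, adjusted p = 0.144). Within the 2 title numbers r was 0.92 and 0.95, and without Ts65Dn embryos 6 and 7 it was 0.59. Dcx and Eomes had an r of 0.65 at E17.5 (permutation p = 0.00738, adjusted p = 0.0184) and a rho of 0.52 (permutation p = 0.0484, adjusted p = 0.144), and r was 0.93 and 0.05 within the title numbers and 0.25 without the same embryos. The other 4 relations at E17.5 had an r of at most 0.17.

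The genes with the pattern most like that of Eomes over the adult libraries were Cacng5 (Pearson's r 0.86), Sp8 (0.79) and Igfbpl1 (0.73), measured on log2 CPM without group means over 47 libraries. Without B85 they were Cacng5 (0.80), Igfbpl1 (0.76) and Clic4 (0.74). For Dcx they were Rasa2 (0.90), Map3k1 (0.89) and Fam184a (0.89), and without B85 Hecw1 (0.80), Cask (0.77) and Pcdh15 (0.77). Hes5 was most like Bnip5 (0.77), Fxyd6 (0.77) and Gap43 (0.76). Over the 15 embryos the nearest genes were Hmgn5 (0.96), 3110039M20Rik (0.96) and Rlbp1 (0.95) for Eomes, Appl1 (0.95), Ralgps2 (0.94) and Trappc8 (0.94) for Dcx, and Prr18 (0.90), Rtl8a (0.89) and Hid1 (0.89) for Hes5. These are descriptions, chosen as the highest of 14297 genes in adults and 14720 in embryos.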

How the data were processed

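RNA was extracted with TRIzol from E17.5 forebrain and 6-week hippocampus, and libraries were made with the TruSeq RNA kit V2, which does not mark strand. The authors deposited raw read counts per gene, without normalization, for 27179 Entrez genes, of which 25275 matched a RefSeq symbol. The submitters' processing notes name HISAT2 2.1.0, featureCounts 2.0.1, DESeq2 2.11.40.6 and the builds mm10 and mm9, and the study's methods name mm10. Their number of RUVr factors is not given in the sources used here.

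Genes were filtered with filterByExpr, scaled by TMM and fitted with the robust quasi-likelihood method of edgeR 4.0.16 under R 4.3.3. Those with a Benjamini-Hochberg adjusted p under 0.1, taken over all genes tested, were called. Each sex was fitted with its 3 genotypes together, and interactions were fitted on all 6 adult groups. CPM values use TMM factors, and log2 CPM values also use a prior count of 0.5. All 10 genes passed the filter in every fit. Alternatives were DESeq2 1.42.0, 1 to 3 RUVr factors, other filters and factors, covariates, other sets of groups and the omission of libraries. The fits were tested on simulated data. Each library is 1 animal. The genes and lists were chosen with earlier results of these data known, and the named genes are the 10 genes, the called genes of each list and the nearest 3 in pattern to Dcx, Eomes and Hes5. Correlations used 100000 permutations (scipy 1.17.1). The 6 libraries that go against their labels were kept in their labelled groups. A list of regional marker genes and the fit that used it are not reported here, and Emx1, Bcl11b and Tbr1, chosen after the values were seen, were used in its place.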

Additional observations from a re-analysis of the deposited data

Results flagged for a closer look

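Of 80 groups of libraries examined (10 genes in 8 groups), 5 held a library that stood apart, by the gap to its nearest neighbour as a share of the group's range on the log2 CPM scale. Chance alone gives about 1 in 20. In the female euploid group, library B85 stood apart for Dcx (121.7 CPM, next 30.5, share 0.652) and for Pax6 (25.5 CPM, next 13.2, share 0.691). In male Ts65Dn;Brwd1+/- mice, B24 stood apart for Neurod1 (50.2 CPM, next 36.5, share 0.771) and B94 for Sox2 (56.9 CPM, next 51.4, share 0.532). Among E17.5 euploid embryos, embryo 7 had the lowest Sox2 (90.5 CPM, next 108, share 0.535).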

How the results depend on the processing

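Neurog2 was called in all 12 alternatives of each of the 4 adult comparisons with euploid, with log2 fold changes of 1.42 to 1.83 in male Ts65Dn, 1.53 to 1.72 in male Ts65Dn;Brwd1+/-, 1.34 to 1.38 in female Ts65Dn and 1.21 to 1.27 in female Ts65Dn;Brwd1+/-. Depth limits Neurog2 and Eomes most, with as few as 19 and 12 reads. Numbers of the 10 genes called changed as follows, and the cause was not tested. At E17.5, 0 became 1 with 1 RUVr factor (Eomes), 2 with 2 factors (Eomes, Neurog2) and 3 with 3 factors in edgeR or DESeq2 (also Vim), where all genes called rose from 221 to between 1429 and 3954. In male Ts65Dn against euploid, 1 became 2 with 3 factors in edgeR or DESeq2, and all genes called also rose in each of these fits. In male Ts65Dn;Brwd1+/- against euploid, 1 became 2 with DESeq2, with 2 or 3 factors, with 3 factors in DESeq2, without libraries against their labels and with only the 2 groups compared; the added gene was Pax6 each time. All genes called in those fits of male Ts65Dn;Brwd1+/- against euploid rose from 97 to between 159 and 1287. In female Ts65Dn against euploid, 1 became 2 with 1, 2 or 3 factors (Hes1), 5 with 3 factors in DESeq2 and 4 with all 6 groups. There all genes called rose from 543 to between 1212 and 4348. In female Ts65Dn;Brwd1+/- against Ts65Dn, 0 became 1 with 3 factors in DESeq2 (Sox2), where all genes called rose from 0 to 840. In female Ts65Dn;Brwd1+/- against euploid, 2 became 4 with 1 factor or with all 6 groups. The number became 5 with 2 or 3 factors and 6 with 3 factors in DESeq2. All genes called in this comparison also rose in each of these fits, so the rise was not particular to the 10 genes. The number fell to 1 without libraries against their labels, with only the 2 groups compared or at an adjusted p under 0.05. With 1 library left out, the numbers ran from 0 to 1 at E17.5 (Vim, without euploid embryo 3), from 0 to 2 in male and from 1 to 4 in female Ts65Dn;Brwd1+/- against euploid, from 1 to 2 in female Ts65Dn, and from 1 to 1 in male Ts65Dn against euploid. They stayed at 0 between Ts65Dn;Brwd1+/- and Ts65Dn. In males, Neurog2 was lost without B26 and Pax6 gained without B145. In females, Eomes was gained in Ts65Dn without B173, and in Ts65Dn;Brwd1+/- Eomes was lost without B85, B113, B133, B166, B167, B176 or B181, and Sox2 and Pax6 gained without B125.

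Among the relations, without the 2 farthest libraries r became -0.27 for Dcx and Neurod1, -0.11 for Dcx and Eomes and 0.29 for Sox2 and Hes5 in adults, and -0.018, 0.25 and -0.080 at E17.5. Without B85, r in adults was -0.12 for Dcx and Neurod1 and -0.23 for Dcx and Eomes.

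With a replicate block on the embryo numbers 1 to 7, 0 of the 10 genes were called, and the difference was -0.52 for Neurog2 (adjusted p = 0.46) and -0.53 for Eomes. Correlations of same-numbered embryos ran from -0.13 to 0.23, 3 of 7 were above 0.1 and 1 of 7 embryos correlated best with its own number, so the numbers were not taken as a pairing. The adult groups share no numbers.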

Other observations

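Genes within 1.5 Mb of Neurog2 on chromosome 3, a window chosen after the values of Neurog2 were seen, were not called in any of the 4 adult comparisons with euploid (10 genes tested in each). At an unadjusted p under 0.05 there were 3 in male Ts65Dn and 5 in male Ts65Dn;Brwd1+/-, against 8.91% and 10.1% of all genes, and 0 in each female comparison, against 15.4% and 11.2%. The 3 in male Ts65Dn were Gm16958 (log2 0.84), Fam241a (0.62) and Tifa (-0.40).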
